A study of Arabidopsis thaliana with 24 samples.

Results

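The comparison described here set the double mutant nlp6nlp7 against the single mutant nlp7 in Arabidopsis thaliana roots before nitrate was given, so that the groups differ, by their labels, in the nlp6 mutation. Its differences rest on 6 of the 24 Affymetrix ATH1 arrays of the study, 3 of nlp6nlp7 and 3 of nlp7 at 0 min. The spread in its tests was estimated from all 24. The study as a whole covers 4 genotypes, Col-0, nlp6, nlp7 and nlp6nlp7, with roots taken at 0 min or once 35 min had passed with 25 mM KNO3 (pH 5.5). In every group the seedlings had spent 9 days with ammonium succinate at 12.5 mM as their nitrogen source, and each of the 3 biological replicates pooled roots of about 200 seedlings from 3 boxes. Col-0 is the reference accession, and the labels give the mutants by gene only, without the allele or the number of independent lines. At 0 min no group had received nitrate.

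NLP6 and NLP7 belong to the NIN-like proteins, transcription factors that bind nitrate-responsive elements in promoters. NLP7 is held in the cytosol in plants without nitrate and accumulates in the nucleus once nitrate is supplied, and it is known both as a sensor and as a master regulator of the primary nitrate response.

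All 22714 probe sets that are not array controls were tested, and 1067 of them (4.7%) differed between nlp6nlp7 and nlp7 at 0 min, 703 higher (3.1%) and 364 lower (1.6%) in the double mutant. A probe set was counted when its Benjamini-Hochberg adjusted p over all 22714, from one limma model of the 24 arrays, was under 0.05. When only the arrays compared were fitted, 241 were called. Differences are log2(intensity + 26) of nlp6nlp7 minus nlp7, and folds are on the same scale of intensity plus 26, which understates the change of dim genes. One gene could be named for 13490 probe sets. Of these, 316 probe sets of 310 genes lie on chromosome 1 between AT1G20910 and AT1G27530, and 13146 lie elsewhere. The other 28 have no locus in the reference and are counted in neither part. The stretch is described first, on its own, because its genes moved as a block. Groups that did not overlap are described gene by gene below, and over all probe sets the 3 arrays of one group lay on one side of the other 3 in 19.7%, 11.2% with nlp6nlp7 higher and 8.51% with it lower. The largest and smallest differences named below were taken from called genes without overlap, so its absence there adds no support. The 509 called probe sets without a single gene name, 316 higher and 193 lower, cannot be placed inside or outside the stretch.

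To describe how the arrays follow the genotype labels, 2 probe sets without a gene name had been singled out with earlier results of these data known. The intensities of the first were 376, 380 and 352 in nlp7 and 3, 5 and 2 in nlp6nlp7, and in nlp6 they were 11, 39 and 3 against 417, 351 and 471 in Col-0. Those of the second were 18 in each nlp7 array and 8, 16 and 8 in nlp6nlp7, while Col-0 had 621, 607 and 622. The first probe set was thus low wherever the labels give the nlp6 mutation, and the second wherever they give nlp7. No probe set could be tied to NLP6 or NLP7 by name, and these 2 were picked from the same data. They are therefore no independent check of the labels. The root hair gene EXPA7 had intensities of 526, 556 and 549 in nlp6nlp7 and 528, 598 and 590 in nlp7. The photosynthetic genes RCA (log2 difference -0.23), LHCB4.1 (-0.58) and PRK (0.41) passed no test, and the lists for endodermis, xylem, phloem and root meristem had no named probe set. The first replicate of nlp7 differed from its fellows at 0 min and at 35 min. It had the lowest limma array weight of the 24 arrays at 0 min (0.408, where the highest is 1.84), and its deviations from the group mean at 0 min and at 35 min correlated at 0.469 across probe sets. Results that rest on it are given with and without it.

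In the stretch from AT1G20910 to AT1G27530, nearly every gene bright enough to measure was higher in nlp6nlp7 by about the same factor. The stretch was recognised in these same arrays, so its shift is a description and not a test. Of its 154 probe sets with a mean intensity of at least 200 over the 24 arrays, called bright here, 152 had a difference above 0 and 140 (90.9%) were called higher. The median log2 difference of the 154 was 0.84, with quartiles of 0.70 and 0.99, and the median ratio of mean intensities was 1.82, with quartiles of 1.65 and 2.03. The 5660 bright named probe sets elsewhere had a median difference of -0.02, and 2.19% of them were called higher.

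The shift was smaller among dim probe sets. Over all 316 probe sets of the stretch the median difference was 0.70, with 183 higher (57.9%) and 1 lower. The 87 dimmest, with a mean intensity below 50, had a median of 0.10 and 1 call, and the 75 between 50 and 200 had a median of 0.73. From there the median was level, at 0.81 for 55 probe sets between 200 and 500, 0.86 for 40 between 500 and 1000, 0.87 for 40 between 1000 and 3000, and 0.76 for 19 at 3000 or more. The median ratio of mean intensities, which has no added 26, was 1.17 below 50 and 1.79 between 50 and 200. The absence of a call in a dim probe set does not show that the gene did not differ.

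The shift began and ended within a few genes. AT1G20890, the last named gene before the stretch, had intensities of 442, 444 and 430 in nlp6nlp7 and 473, 575 and 563 in nlp7, a log2 difference of -0.27 (SE 0.11, adjusted p = 0.174). The first gene inside, AT1G20910, had 353, 479 and 614 against 241, 318 and 320 (0.65, SE 0.23, adjusted p = 0.131). AT1G20950, a gene for a subunit of the pyrophosphate-dependent phosphofructokinase of glycolysis, had 6769, 7322 and 7094 against 3684, 4006 and 4552 (0.79, SE 0.10, adjusted p = 5.0e-05). The nlp6nlp7 arrays were thus below those of nlp7 at the last gene before the stretch and above them at these bright genes inside it. At the other end, AT1G27530 had 6408, 6681 and 5677 against 3468, 4058 and 3998 (0.70, SE 0.09, adjusted p = 4.6e-05). AT1G27550, the first named gene after it, was too dim to measure, with intensities of 6 or less, and the bright AT1G27595 and AT1G27620 beyond it had differences of -0.11 and -0.17.

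Over the 50 bright named probe sets before the stretch the median difference was -0.00, with 2 higher and 3 lower, and over the 50 after it the median was 0.04, with 3 higher and 0 lower. The first 20 and the last 20 bright probe sets inside both had a median of 0.81. The median of all 154 was 0.84. At the first edge the 4 outermost bright genes, AT1G20910, AT1G20950, AT1G21000 and AT1G21010, had 0.65, 0.79, 0.49 and 0.33, and whether the ends differ from the rest was not tested. Among the flanking genes, AT1G20070 was lower (-0.61, adjusted p = 0.0468; without replicate 1 of nlp7 adjusted p = 0.171) and the zinc finger gene STZ was higher. STZ had intensities of 1380, 1201 and 1268 in nlp6nlp7 and 865, 749 and 740 in nlp7, with no overlap (0.69, SE 0.12, adjusted p = 0.00149). Both genes were chosen after their values were seen.

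**Figure D1:**
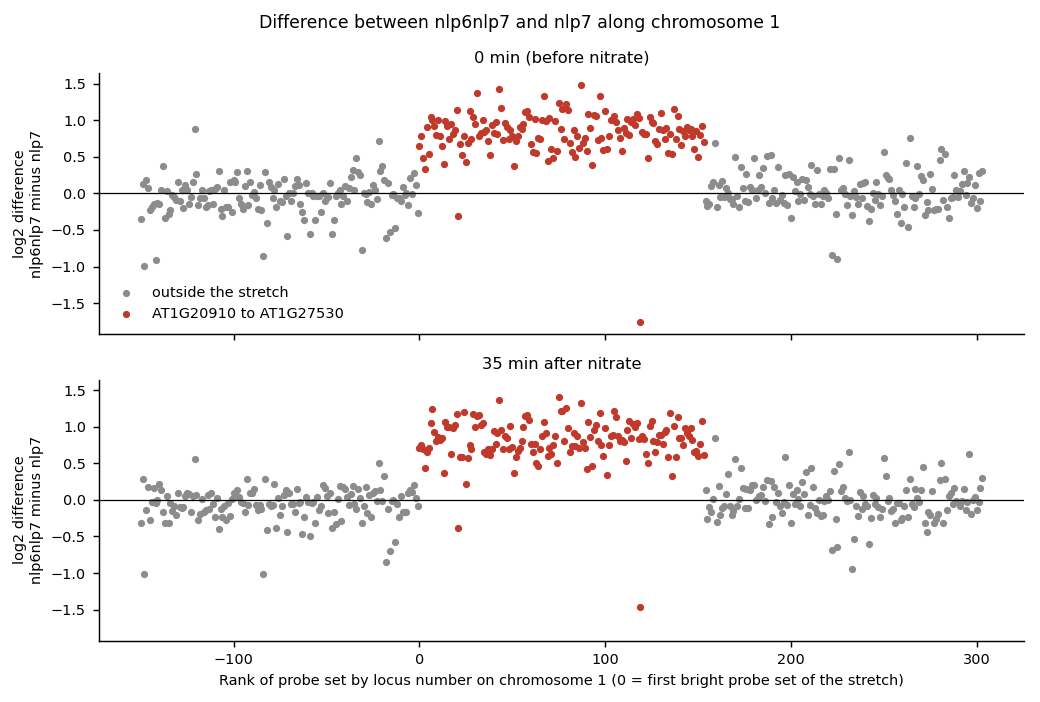
Each point is a bright named probe set of chromosome 1, placed by the rank of its locus number (x axis, 0 being the first of the stretch) and by its log2 difference of nlp6nlp7 minus nlp7 (y axis), at 0 min above and at 35 min below; red points belong to the stretch. The 154 points of the stretch form a step with a median of 0.84 at 0 min and 0.83 at 35 min between flanks with medians of -0.00 and 0.04 at 0 min.

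The step was present in each array of the double mutant and in no array of another genotype. Against the mean of the 18 arrays of the other genotypes, the median of the 154 bright members was 0.87, 0.86 and 0.87 in the nlp6nlp7 arrays at 0 min and 0.83, 0.80 and 0.84 at 35 min. In the other 18 arrays it lay between -0.08 and 0.06, and the named genes outside the stretch lay between -0.06 and 0.06 in all 24. The nlp6 arrays were at 0.06, 0.04 and 0.05 at 0 min, where those of Col-0 were at 0.03, 0.03 and 0.02. The median difference of nlp6 minus Col-0 over the 154 was -0.02, and no member of the stretch was called in that comparison. NLP6 (AT1G64530) and NLP7 (AT4G24020) lie outside the stretch by their locus numbers. What sets these genes apart was not tested.

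**Figure D2:**
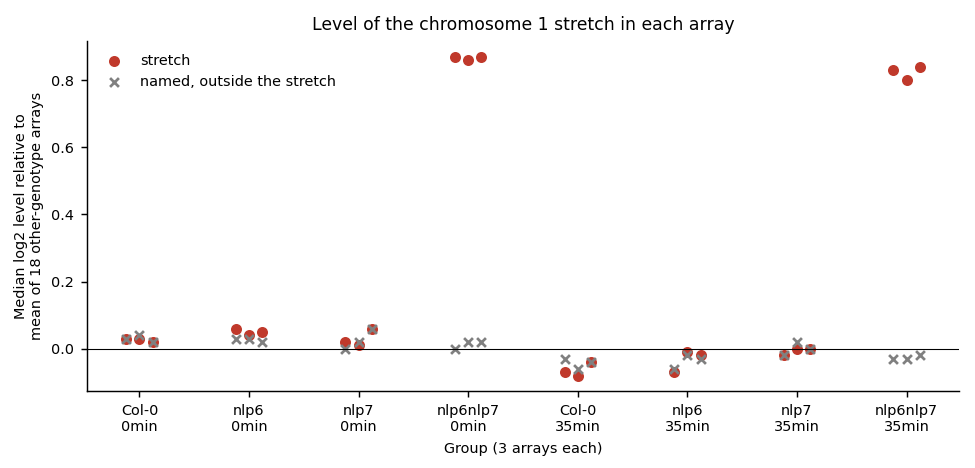
Each red point is the median log2 level of the 154 bright stretch members in one array (y axis, relative to the mean of the 18 arrays of the other genotypes), and each grey cross the same median over 5660 bright named probe sets elsewhere; groups of 3 arrays stand along the x axis. The 6 nlp6nlp7 arrays lie between 0.80 and 0.87 and the other 18 between -0.08 and 0.06.

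The genes of the stretch were grouped by whether the reference gives them a symbol. A symbol beyond the locus code was available for 29 of its probe sets, of which 12 were higher and 0 lower at 0 min, beside the 57.9% higher over the stretch and 3.1% over all probe sets, and 10 of the 12 were also higher at 35 min. Among the 9 bright ones 8 were higher. The clock gene GI had intensities of 1206, 1313 and 1166 in nlp6nlp7 and 695, 708 and 758 in nlp7 (0.75, SE 0.09, adjusted p = 4.2e-05). LCR, an F-box gene, had 1631, 1945 and 1800 against 998, 1071 and 1019 (0.78, SE 0.09). GUT2, a glycosyltransferase gene of xylan synthesis, had 1007, 969 and 1021 against 545, 502 and 497 (0.92, SE 0.10). In these 3 genes the groups did not overlap and the differences were close to the median of the stretch. CSLA03, of the cellulose synthase-like family that makes mannans, differed by 0.99 and LSM3A, of the RNA-binding LSM complexes, by 0.80. UGT74B1, which glucosylates thiohydroximates in glucosinolate synthesis, rose by 0.78 and UGT85A2 by 0.86. SKP2A, an F-box gene of the cell cycle, had 376, 345 and 324 against 391, 172 and 252 and was the 1 bright member with a symbol that passed no test (0.40, adjusted p = 0.359).

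The largest rises within the stretch were those of AT1G24320 and AT1G22570. AT1G24320, of the six-hairpin glycosidase family, had intensities of 2790, 1819 and 2169 in nlp6nlp7 and 584, 860 and 952 in nlp7, and rose 2.78-fold (1.48, SE 0.25, adjusted p = 0.00104). AT1G22570, of the NPF transporter family, had 969, 735 and 766 against 232, 371 and 278 and rose 2.68-fold (1.42, SE 0.14, adjusted p = 3.6e-06). Every double mutant array exceeded every nlp7 array in both genes, as the rule for naming them required. AT1G24420, a BAHD-type acyltransferase gene (1.41), AT1G22160 (1.37), the RNA-binding protein gene AT1G22330 (1.35), AT1G23280 (1.33) and the purple acid phosphatase gene AT1G25230 (1.33) followed. The 8th was LPR1, a multicopper oxidase gene that acts in the root's growth response to low phosphate, with 334, 288 and 303 against 122, 96 and 127 (1.25, SE 0.12, adjusted p = 2.2e-06). All 8 were also higher at 35 min and without replicate 1 of nlp7.

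At the low end, the called genes with the smallest rise were abundant ones. CYTC-1, a cytochrome c gene and among the brightest of the stretch, had intensities of 15966, 13838 and 14650 in nlp6nlp7 and 11618, 11483 and 10880 in nlp7 (0.38, SE 0.08, adjusted p = 0.00371). AT1G26550, a parvulin-type peptidyl-prolyl isomerase gene, rose by 0.48 and AT1G21770 by 0.52. A lack of overlap between the arrays of the 2 genotypes was a condition for naming these 3 genes.

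Only 2 bright members of the stretch were not above 0, AT1G26390 (-1.76, adjusted p = 0.149) and AT1G21680 (-0.31, adjusted p = 0.715), and neither passed the test. AT1G26390 stands beside AT1G26380 and AT1G26410, and all 3 encode berberine bridge enzyme-like oxidases, a family with members that respond to pathogens. Of their neighbours, AT1G26400 was too dim to measure (mean intensity 5.58, difference 0.01) and AT1G26420 had -0.75 (adjusted p = 0.484). Their nlp7 intensities were 1852, 263 and 137 for AT1G26390, 1297, 255 and 75 for AT1G26380, and 654, 114 and 20 for AT1G26410. In nlp6nlp7 they were 87, 148 and 90, then 157, 181 and 128, and then 5, 8 and 4. Replicate 1 of nlp7 was the highest array in all 3 genes, as it was in AT1G21680 with 1028 beside 373 and 362. AT1G26410 was the 1 member called lower (-2.37, SE 0.65, adjusted p = 0.0407), and without that replicate its difference was -1.34 with an adjusted p of 0.194. AT1G26380 had -0.90 with all arrays and 0.10 without it, and the extensin-like gene AT1G26240 had 0.29 and 1.13. Apart from AT1G26410, the genes of this paragraph were chosen after their values were seen, and those at the edges above by their position.

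Outside the stretch 373 of 13146 named probe sets differed, 204 higher (1.55%) and 169 lower. Over all probe sets, which include the stretch, 4.7% differed, 3.1% higher and 1.6% lower. Only 19 of the higher and 26 of the lower ones changed 2-fold or more. The balance depends on scaling, since 54.7% of these calls were higher as deposited and 32.6% (131 higher, 271 lower) after each array was centred on its median. Over all probe sets the higher share was 65.9% as deposited, 49.2% after centring (549 higher, 566 lower) and 59.7% after quantile normalization (661 higher, 447 lower). The median of all differences was 0.02 as deposited and -0.04 after centring.

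The largest rises outside the stretch were those of AT1G66860, AT5G61290 and BGLU32. In whole roots, more cells of a type and more RNA per cell cannot be told apart, and the same holds for each difference below. AT1G66860, of the class I glutamine amidotransferase family, had intensities of 412, 418 and 226 in nlp6nlp7 and 4, 68 and 56 in nlp7, and rose 5.96-fold (2.58, SE 0.37, adjusted p = 1.6e-04). Col-0 had 42, 47 and 35 and nlp6 had 47, 15 and 36, so the double mutant was the 1 genotype with a high level. AT5G61290, of the flavin-containing monooxygenases, had 2058, 1818 and 1707 against 251, 774 and 817 and rose 3.29-fold (1.72, SE 0.36, adjusted p = 0.00684). The beta-glucosidase gene BGLU32 had 169, 123 and 113 against 23, 42 and 20 (1.57, SE 0.28, adjusted p = 0.00128). Neither gene overlapped with nlp7, as their choice required. Col-0, at 547, 841 and 403 for AT5G61290 and at 96, 53 and 47 for BGLU32, lay below the double mutant too. The GDSL lipase gene AT1G29660, with 298, 284 and 238 against 66, 116 and 90, rose 2.6-fold (1.38, adjusted p = 0.00111).

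AT4G14980, which encodes a cysteine- and histidine-rich C1 domain protein, had the smallest adjusted p of the 12 largest rises. Its intensities were 572, 682 and 606 in nlp6nlp7 and 239, 217 and 281 in nlp7 (1.25, SE 0.14, adjusted p = 1.4e-05). Col-0 had 532, 406 and 364 and nlp6 had 521, 412 and 350, so here nlp7 was the low genotype and the double mutant stood above Col-0. AT4G12500, a lipid transfer protein-like gene of the EARLI1 group, rose by 1.26 from 43, 30 and 24 to 131, 98 and 109. The membrane protein gene AT4G18425 rose by 1.22, with 1048, 535 and 629 against 284, 274 and 308. The remaining 5 were AT1G59171 (1.36), the isocitrate lyase gene ICL of the glyoxylate cycle (1.20), AT4G28085 (1.15), the lectin-domain gene AT5G03350 (1.12) and AT1G49110 (1.10). Without replicate 1 of nlp7, 10 of the 12 were still called, and ICL (adjusted p = 0.102) and AT1G49110 (adjusted p = 0.132) were not. AT1G66860 had a difference of 2.06 without it, since that replicate was the lowest of its group at an intensity of 4.

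**Figure D3:**
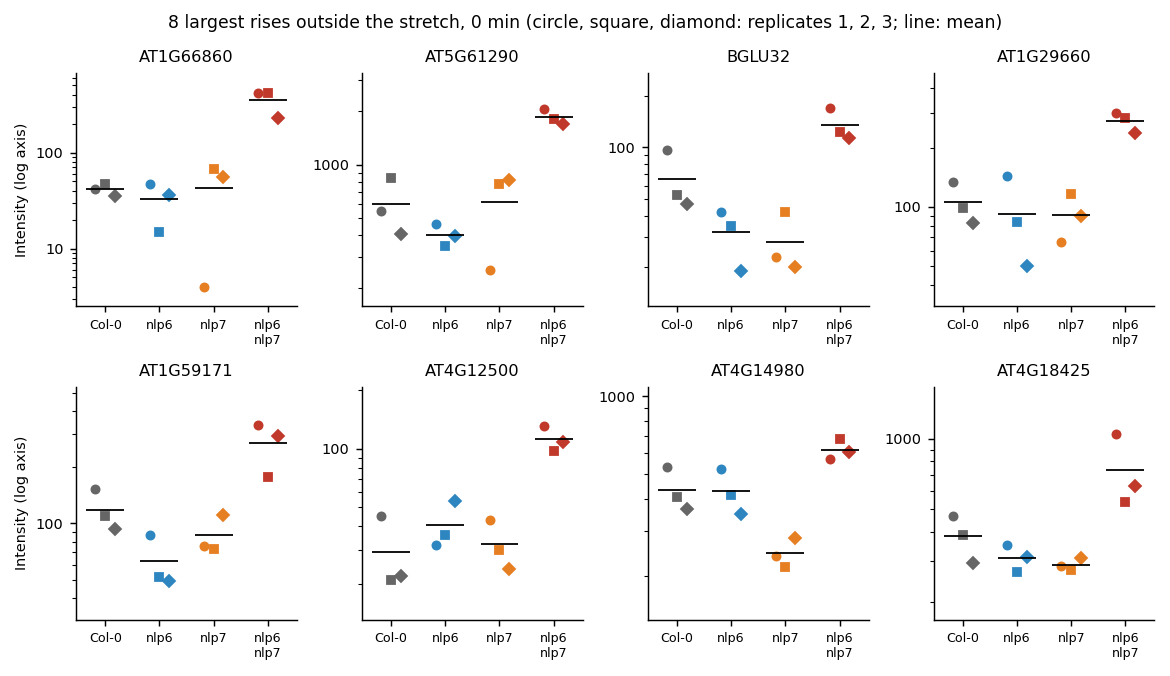
The 8 panels give the intensity at 0 min (y axis, log scale) of the 8 largest rises outside the stretch in Col-0, nlp6, nlp7 and nlp6nlp7 (x axis), with circles, squares and diamonds for replicates 1, 2 and 3 and a line at the mean. In each panel the 3 nlp6nlp7 arrays lie above the 3 nlp7 arrays, as the choice of genes required. For AT1G66860 they lie between 226 and 418, where no other array at 0 min exceeds 68.

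The largest falls outside the stretch were those of CHI, AT2G38870 and AT5G48430, and most of the 12 largest were called with replicate 1 of nlp7 and not without it. CHI (AT2G43570), a chitinase gene, had intensities of 640, 514 and 580 in nlp6nlp7 and 7447, 1761 and 1318 in nlp7 (-2.12, SE 0.51, adjusted p = 0.0167). AT2G38870, a proteinase inhibitor gene of the PR-6 family, had 358, 456 and 453 against 5000, 1082 and 796 (-1.90, SE 0.53, adjusted p = 0.0451). Col-0 had 1438, 1781 and 1649 of CHI, above the double mutant, and 437, 426 and 556 of AT2G38870, overlapping with the double mutant. As their choice required, the double mutant was below every nlp7 array in both genes. Replicate 1 of nlp7 was at least 4 times its fellow replicates. Without it the differences were -1.36 (adjusted p = 0.0969) and -1.10 (adjusted p = 0.215). The tau glutathione transferase gene GSTU22 had 1095, 1032 and 1174 against 4990, 1987 and 1747 (-1.22, and -0.75 with adjusted p = 0.0888 without that replicate).

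Replicate 1 of nlp7 was the highest of its group in 11 of the 12 largest falls, and 2 of the 12 remained called without it. These were AT5G48430, of the aspartyl protease family, and AT2G16190. AT5G48430 had 152, 168 and 167 against 1290, 503 and 376 (-1.80, SE 0.34, adjusted p = 0.00292; -1.29 and adjusted p = 0.0167 without the replicate). AT2G16190 was dim, with 15, 23 and 11 against 82, 97 and 57 (-1.30, adjusted p = 0.00265). Col-0 had 26, 21 and 2 of AT2G16190, so there nlp7 was the high genotype and the double mutant overlapped with Col-0. Of AT5G48430, Col-0 had 343, 265 and 296, above the double mutant. The others were the 2-oxoglutarate-dependent oxygenase gene AT5G43450 (-1.76), AT3G55790 (-1.62), the alpha/beta hydrolase gene AT1G68620 (-1.59), the lipid transfer protein gene AT2G37870 (-1.34), the SABATH methyltransferase gene AT3G44840 (-1.26), AT1G70420 (-1.24) and AT2G41730 (-1.22). Their adjusted p-values were between 0.0541 and 0.18 without the replicate. Of all 169 falls outside the stretch, replicate 1 of nlp7 was the highest of its group in 88, and 83 were still called without it. Of the 204 rises it was the lowest in 103, and 98 were still called. Over all probe sets 2.44% were higher and 0.916% lower when it was left out. In the stretch 171 of the 183 higher calls were kept. What sets this replicate apart was not tested.

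A set of falls outside the stretch was called both with and without that array, and its 12 largest, chosen after the values were seen, follow. Replicate 1 of nlp7 was still the highest of its group in 9 of the 12, and without it AT5G62150 went from -0.93 to -0.52, SFP1 from -1.11 to -0.85 and AT1G78780 from -1.10 to -0.79. AT5G18840, a sugar porter gene, had intensities of 239, 293 and 263 in nlp6nlp7 and 677, 599 and 483 in nlp7 (-1.06, SE 0.13, adjusted p = 4.3e-05; -0.96 without the replicate). A related sugar porter gene, SFP1, fell by 1.11, from 983, 623 and 512 to 318, 311 and 278. UGT72E1, which glucosylates monolignol precursors, had 684, 829 and 952 against 1782, 1696 and 1674 (-1.05, SE 0.16, adjusted p = 3.5e-04). Col-0 had 1968, 1706 and 2350 of UGT72E1 and nlp6 had 1616, 1769 and 2068, so only the double mutant lay below 1000. The receptor kinase gene AT5G37450, with leucine-rich repeats, had 304, 272 and 306 against 751, 569 and 612 (-1.06, SE 0.16). The transporter gene AT2G16660, of the major facilitator family, had 407, 327 and 412 against 721, 909 and 746 (a 2-fold fall, SE 0.13 on the log2 scale, adjusted p = 7.8e-05). The TIR-NBS-LRR immune receptor gene AT2G17060 fell by 1.05 and the pathogenesis-related family gene AT1G78780 by 1.10. The set was completed by AT5G48430 and AT2G16190, described above, with AT1G14890 (-0.99), AT2G28780 (-0.97) and AT5G62150 (-0.93).

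**Figure D4:**
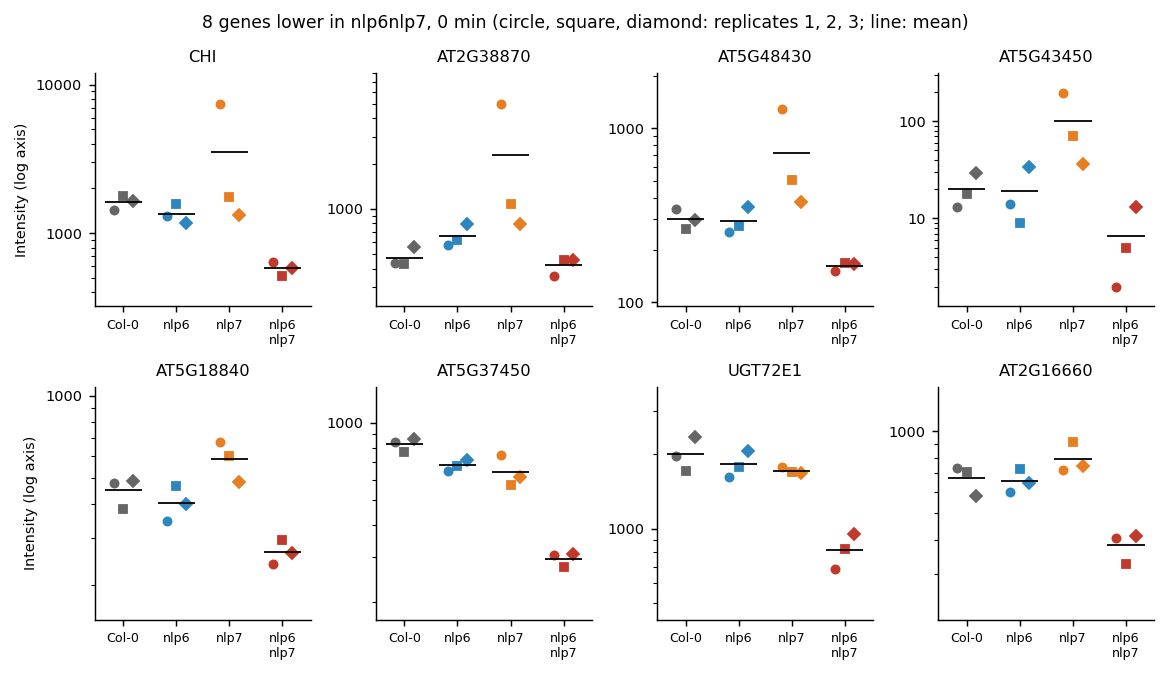
The 8 panels give the intensity at 0 min (y axis, log scale) in Col-0, nlp6, nlp7 and nlp6nlp7 (x axis) of the 4 largest falls (upper row) and of 4 falls called with and without replicate 1 of nlp7 (lower row, chosen after the values were seen), with circles, squares and diamonds for replicates 1, 2 and 3 and a line at the mean. The circle of nlp7 is the highest of its group in the upper row, at 7447 for CHI. In the lower row it is also the highest for AT5G18840, AT5G37450 and UGT72E1, though nearer to its fellow replicates, and not for AT2G16660. All nlp7 replicates of the lower row lie above all nlp6nlp7 arrays, as the choice of genes required.

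Of 12 listed genes of nitrate uptake and reduction 1 has a named probe set here, and of 20 listed nitrate regulators 4 do. Of these 4, 1 was higher and 1 lower, where 3.1% of all probe sets were higher and 1.6% lower, and the list median was 0.12 beside 0.02 over all probe sets. With 4 members nothing is read from that count. HHO3 (AT1G25550), a GARP family repressor that nitrate induces, lies in the stretch and had 827, 641 and 735 against 520, 489 and 438 (0.58, SE 0.10, adjusted p = 0.00107). HHO2 (AT1G68670), its relative outside the stretch, had 211, 205 and 202 against 277, 278 and 272 (-0.38, SE 0.08, adjusted p = 0.0099). These 2 paralogs thus moved in opposite directions at 0 min, each without overlap between the groups, as in 19.7% of all probe sets. The rise of HHO3 was below the median of 0.84 over the bright stretch members. HHO2 had hardly any difference at 35 min, as given below. HHO1 (AT3G25790) was dim, at 6, 36 and 25 against 8, 10 and 2 (0.52, adjusted p = 0.228), and NRG2 (AT3G60320), a protein that interacts with NLP7, had a difference of -0.28 (adjusted p = 0.267). The high-affinity nitrate transporter gene NRT2.5 had 108, 128 and 129 against 207, 116 and 128 (-0.22, adjusted p = 0.707).

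None of the 4 measured genes for reductant and carbon supply passed the test, namely the 6-phosphogluconate dehydrogenase genes PGD1 (AT1G64190, -0.21), PGD2 (AT3G02360, -0.03) and PGD3 (AT5G41670, -0.19) and the phosphoglycerate mutase gene PGM (-0.11). The same held for the hypoxia gene HRA1 (AT3G10040, -0.06), for the iron-deficiency regulators PYE (-0.21) and BHLH101 (-0.61), and for the flavonoid genes DFR (-0.01) and UF3GT (0.52). No member of the ammonium and phosphate lists had a named probe set. In all, 18 of the 116 loci listed by number were measured.

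Few members of the listed families were called, and the counts below stand beside 3.1% higher and 1.6% lower over all probe sets, from which none is shown to differ. Of 18 expansins, which loosen walls, 2 were higher and 0 lower (list median 0.06). EXPB1 had 718, 762 and 703 against 334, 360 and 479 (0.87, SE 0.16, adjusted p = 0.00158), and EXPB3 had 1723, 1952 and 1895 against 954, 1298 and 1365 (0.63, adjusted p = 0.0173). EXPB1 was also called without replicate 1 of nlp7 and EXPB3 was not (adjusted p = 0.108). Of 9 xyloglucan transferases, which remodel wall glycans, XTH26 was higher (0.76, adjusted p = 0.036, and 0.104 without that replicate). The other families had at most 3 calls in a direction. UDP-glycosyltransferases counted 3 higher of 47, UGT84A4 (0.69) and, in the stretch, UGT74B1 and UGT85A2, with UGT72E1 lower. Tau glutathione transferases counted GSTU28 higher (0.59) and GSTU22 lower of 11. Serine carboxypeptidase-like genes counted scpl40 (0.86) and SCPL34 (0.54) of 29, and tetraspanins TET2 (0.42) of 15. WRKY47 was higher (0.60) among 6 WRKY factors, BGLU32 among 20 beta-glucosidases, and SWEET1, in the stretch, among 14 SWEET transporters (0.67). Without replicate 1 of nlp7, UGT84A4 (adjusted p = 0.215), SCPL34 (0.0666), TET2 (0.0674), SWEET1 (0.0731) and GSTU22 (0.0888) were no longer called. No call was made by limma among 26 cytochrome P450s, 42 probe sets of AGAMOUS-like genes or 7 Aux/IAA genes.

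The same genotypes were compared again at 35 min after nitrate. The differences there rest on 6 arrays whose values do not enter the differences at 0 min. The spread for both times was estimated from all arrays of the study, so the calls at 0 min and at 35 min are not independent. There 835 probe sets (3.68%) were called, 562 higher (2.47%) and 273 lower (1.2%). Of the 183 stretch members higher at 0 min, all 183 had the same direction at 35 min and 165 were called. Of the 204 rises outside the stretch, 191 had the same direction and 70 were called, and of the 169 falls 158 and 62. Replicate 1 of nlp7 deviates alike at both times, so the counts were also taken without it at both. Then 154 genes outside the stretch were higher at 0 min, 146 of them with the same direction and 44 called at 35 min, and 139 were lower, 132 and 46. Of all probe sets, 2.18% were then higher and 0.938% lower at 35 min.

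Across the 5660 bright named probe sets outside the stretch, the differences at 0 min and at 35 min correlated at r = 0.74, and at 0.66 without replicate 1 of nlp7. Across the 154 bright stretch members r was 0.88 and 0.82. These are descriptions across genes, which are not independent replicates, and the arrays of one genotype may share growth conditions. Of the 12 largest falls called with and without that replicate, 9 were called lower at 35 min, and AT5G48430 (-1.24, adjusted p = 0.0508), AT2G28780 (-0.60, adjusted p = 0.204) and AT5G62150 (-0.36, adjusted p = 0.526) were not. AT5G18840 had 444, 417 and 551 in nlp6nlp7 and 1112, 1020 and 1051 in nlp7 at 35 min (-1.14, adjusted p = 2.0e-05), UGT72E1 had 290, 290 and 341 against 622, 729 and 713 (-1.10), and AT2G16660 had 815, 753 and 756 against 1333, 1526 and 1640 (-0.93). AT1G66860 had 413, 493 and 236 against 47, 133 and 89 (1.83, adjusted p = 0.00516). Each of these 4 genes, chosen without overlap at 0 min, kept the 2 genotypes apart at 35 min too.

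**Figure D5:**
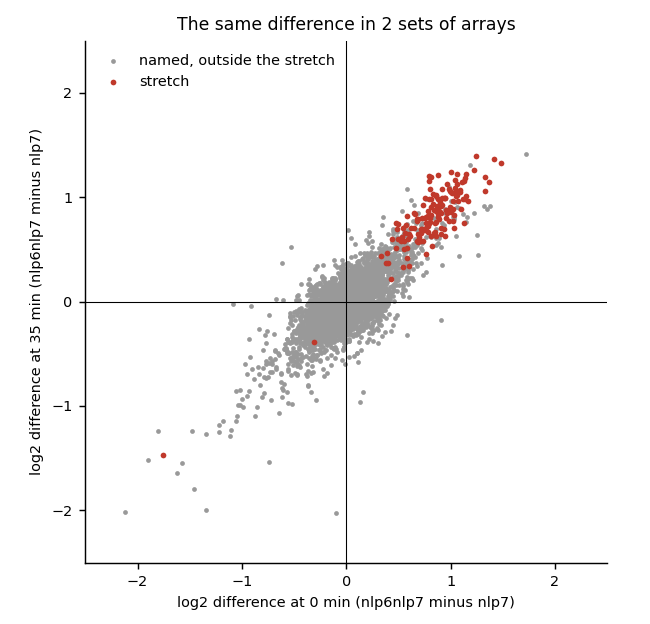
Each point is a bright named probe set, placed by its log2 difference of nlp6nlp7 minus nlp7 at 0 min (x axis) and at 35 min (y axis), red for the 154 members of the stretch and grey for 5660 others. The red points cluster near 0.84 and 0.83 on the axes, and the grey ones follow the diagonal with r = 0.74.

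Whether a difference changed between 0 min and 35 min was tested as well. No probe set passed by limma (782 had an unadjusted p under 0.05, and the lowest adjusted p was 0.17), and other settings of the same model called 4 at most. BGLU32 fell back to 44, 32 and 31 in nlp6nlp7 beside 18, 38 and 26 in nlp7 at 35 min, and ICL had 87, 20 and 47 against 47, 109 and 79. The changes of their differences, -1.35 (SE 0.39) and -1.68 (SE 0.47), did not pass. HHO2, unlike BGLU32 and ICL, was lower in nlp6nlp7 at 0 min. At 35 min it had 934, 954 and 918 against 1002, 899 and 966 (-0.03), and the change of its difference did not pass either.

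An nlp6 mutation was also compared where the labels give no nlp7 mutation, as nlp6 against Col-0 at 0 min. The labels do not show whether nlp6 and nlp6nlp7 carry the same nlp6 allele. The differences of this comparison rest on 6 other arrays, with the spread again estimated from all arrays of the study. Here 20 probe sets (0.0881%) were called, 4 higher (0.0176%) and 16 lower (0.0704%). Of the 204 genes higher outside the stretch in the double mutant, 104 had the same direction in nlp6 and 0 were called. Of the 169 lower ones 103 had the same direction and 0 were called. The differences of the 2 comparisons correlated at r = 0.02 across the 5660 bright named probe sets outside the stretch.

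The test of the difference between those comparisons, the departure from additivity, shares the nlp6nlp7 and nlp7 arrays with the comparison described here. It called 465 probe sets (2.05%), 371 higher (1.63%) and 94 lower (0.414%). In the stretch 126 members were called, all higher, and outside it 136, of which 94 were higher and 42 lower. AT1G66860 differed by -0.24 for nlp6 against Col-0 and by 2.58 for nlp6nlp7 against nlp7, a departure of 2.81 (SE 0.52, adjusted p = 0.00518). BGLU32 had -0.64 and 1.57, and AT4G14980 had -0.02 and 1.25. Among the falls, AT5G18840 had -0.15 and -1.06 (departure -0.92, SE 0.19, adjusted p = 0.0123) and AT2G16660 had -0.03 and a 2-fold fall (departure -0.97, adjusted p = 0.00811). All 5 departures were also called without replicate 1 of nlp7. These genes were chosen for their difference between nlp6nlp7 and nlp7, which the departure contains. For them that difference was not the one between nlp6 and Col-0. The nlp6nlp7 arrays also carry the chromosome 1 step that the nlp6 arrays lack, and its part in these departures was not tested. For CHI (departure -1.85, adjusted p = 0.237) and AT2G38870 (-2.35, adjusted p = 0.136) the differences were not shown to depart.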

How the data were processed

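Root RNA extracted with TRIzol was hybridised to 24 ATH1 arrays, per the labels' protocols. The authors deposited one intensity for each probe set and array, in whole numbers from 1 to 36178. After 2% was trimmed from either tail, array means were 500.1 to 500.5, so the arrays had been scaled, and medians were 163 to 196. Which software summarised the probes is not given in the sources used. Of 22776 probe sets, 62 controls were left out.

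Values were taken as log2(intensity + 26), where 26 is the 20th percentile. One group-means model in limma 3.58.1 (R 4.3.3), over 24 arrays with 16 residual degrees of freedom, gave two-sided moderated tests with Benjamini-Hochberg adjustment, and was tested on simulated data. Probe sets were named from the array's gene table, with symbols and gene order from TAIR10.1. Of the 22714 tested, 503 match several genes and 8721 none. No coordinates are given, because the array table names no assembly. Roles are general knowledge.

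Members and lists were chosen with earlier results of these data known. Named outside the stretch were the 12 highest and 12 lowest called genes whose groups do not overlap, within it the 8 highest and 4 lowest, and members of listed families. The comparison of differences between times was added. Same-numbered nlp6nlp7 and nlp7 arrays at 0 min deviated together at r = -0.00577, 0.0658 and 0.0749, so the numbers do not pair them. Python 3.11.15 made tables and plots. Precision is limited by 3 arrays per group.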

Additional observations from a re-analysis of the deposited data

Results flagged for a closer look

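For 26 of the named genes the difference between nlp6nlp7 and nlp7 at 0 min was not the difference between nlp6 and Col-0, by the limma test of departure from additivity over all probe sets. That test called 2.05% of all probe sets. Most of the 26 were named because nlp6nlp7 and nlp7 differed at 0 min. The departure contains that same difference, so it is not separate evidence and its size may be inflated by the choice. The departures below are on the log2 scale. Outside the stretch they were 2.81 for AT1G66860, 2.22 for AT5G61290, 2.21 for BGLU32, 2.07 for AT1G59171, 1.58 for AT1G29660, 1.52 for AT3G10930, 1.27 for AT4G14980 and 1.10 for AT4G28085. Among members of the listed families they were 0.87 for EXPB1, 0.80 for scpl40 and 0.61 for TET2. Downward departures were -1.68 for AT2G16190, -0.97 for AT2G16660, -0.92 for AT5G18840 and -0.92 for UGT72E1. Of the 26, 22 were still called without replicate 1 of nlp7, and UGT72E1 (adjusted p = 0.0872), scpl40 (0.0657), EXPB1 (0.109) and TET2 (0.0611) were not.

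Inside the stretch the departures were 2.15 for AT1G24320, 1.80 for AT1G22160, 1.50 for AT1G24420, 1.37 for AT1G22570, 1.36 for AT1G22330, 1.22 for AT1G25230 and 1.19 for LPR1. They were 0.95 for UGT74B1, 0.67 for HHO3 (AT1G25550), 0.56 for AT1G21770 and 0.54 for AT1G26550. AT3G10930 had intensities of 971, 724 and 989 in nlp6nlp7, 335, 462 and 446 in nlp7, 448, 346 and 398 in nlp6 and 695, 541 and 445 in Col-0, so that the double mutant was the highest genotype and no array of it overlapped with another genotype.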

How the results depend on the processing

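For nlp6nlp7 against nlp7 at 0 min, the 1067 calls became 241 when only the 6 arrays compared were fitted, 506 with 1 probe set per named gene, and 671 to 1186 with single arrays left out. The counts were 671 and 676 without replicates 2 and 3 of nlp6nlp7. Outside the stretch the 373 calls became 39 with only the arrays compared and 190 to 438 with single arrays left out, namely 234, 194 and 190 without replicates 1, 2 and 3 of nlp6nlp7 and 236 without replicate 1 of nlp7. Inside it 184 calls became 106 and 163 to 178. Of 62 named genes, 19 and 43 to 59 were called under these settings. Departures from additivity numbered 465, then 234 with only the arrays compared and 268 to 524 with arrays left out (276 and 268 without replicates 1 and 2 of Col-0, 297 without replicate 3 of nlp6nlp7). At 35 min 835 calls became 1275 with array weights, 386 with only the arrays compared, and 556 to 731 with arrays left out (556 without replicate 2 of nlp6nlp7). For nlp6 against Col-0, 20 calls became 110 with array weights, 0 with only the arrays compared, 32 with quantile normalization and 2 to 49 with arrays left out, and every one of its 6 arrays moved that count by over 1.5 times. Fitting only the arrays compared also changes which arrays estimate the spread and how many do. Why any of these counts moved was not tested. The change of the difference between times had 4 calls with trended and robust variances, 2 with the pseudocount at the 40th percentile, 1 with the replicate block and 0 under the others. HHO2 and HHO3 were called under all alternatives but that of only the arrays compared (adjusted p = 0.126 and 0.117).

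With replicate number as a block, the counts were 1139 at 0 min, 501 for additivity, 36 for nlp6 against Col-0 and 894 at 35 min. The same number gave r of at most 0.0749 between nlp6nlp7 and nlp7 at 0 min, and of 0.469, 0.0674 and 0.338 between nlp7 at 0 min and at 35 min. Among named genes under all alternatives, 889 values kept their direction and call, 162 kept the direction and lost the call, and 0 reversed. Leaving out replicate 1 of nlp7 at both times was chosen after seeing the data. The files give no background measure, so which dim probe sets lie above background is not known here.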
